A study of Mus musculus with 10 samples.

Results

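Signal transducers and activators of transcription (STAT) were examined in tumor-draining lymph nodes (TDLNs) through 6 genes, Stat2 (ENSMUSG00000040033), Stat3 (ENSMUSG00000004040), Stat4 (ENSMUSG00000062939), Stat5a (ENSMUSG00000004043), Stat5b (ENSMUSG00000020919) and Stat6 (ENSMUSG00000002147). They were chosen by gene family, with earlier results of these data already known, and are 6 of the 33585 genes listed in the data. All 6 were expressed above the limit for testing, a mean of at least 1 FPKM over all libraries (fragments per kilobase of transcript, scaled to the mapped fragments of the library, a level per transcript length), along with 13334 genes in all.

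The nodes came from female BALB/c mice aged 6 weeks with tumors of 4T1, a mouse mammary carcinoma cell line, and microwave ablation (MWA) of the tumor was done on day 10 in every mouse. The MWA group then received PBS, and the MWA+2DG group received 2-deoxy-D-glucose (2DG), a glucose analogue that blocks glycolysis, by intraperitoneal injection every 2 days until the nodes were taken on day 15. Each group had 5 mice with 1 library per mouse, and no mouse without ablation is among these samples, so the comparison is of 2DG on top of MWA. RNA was extracted from whole frozen nodes, which hold T cells, B cells, myeloid cells and stroma together. The labelled tissue was checked with its markers, and the B cell gene Cd79a averaged 487 ± 58.5 FPKM under 2DG and 503 ± 35.4 FPKM without it (SD, n = 5), while the T cell gene Cd3e stood at 33.5 ± 4.66 and 28.8 ± 4.403 FPKM.

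STAT proteins carry cytokine signals to the nucleus. A cytokine brings its receptor chains together, the Janus kinases bound to those chains phosphorylate the receptor and the STAT docked on it, and the STAT dimer then enters the nucleus and binds DNA, where it induces among others the SOCS genes that shut the signal down. In lymph nodes the members divide the work by cytokine: Stat2 serves type I interferon, Stat4 interleukin-12, Stat3 interleukin-6, interleukin-10 and interleukin-21, Stat5a and Stat5b the common gamma chain cytokines such as interleukin-2 and interleukin-7, and Stat6 interleukin-4 and interleukin-13. RNA level is not activity, since STAT proteins are switched on by phosphorylation, which RNA sequencing does not measure.

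Several STAT genes are themselves induced by the cytokines they serve, and Stat2 belongs to the interferon-stimulated genes. The promoter of Stat2 is shown because the level of Stat2 moved with interferon-stimulated genes in these libraries. Of Stat4, which differed between the groups, only the downstream start is shown, since the upstream start held no match. Each window runs from 250 bases before to 50 bases after the start, taken from RefSeq on GRCm38.p6, a later build than the mm9 named in the labels, and the expression files hold no coordinates. Stat2 lies at chr10:128270248-128270547 on the plus strand and the Stat4 start at chr1:52007990-52008289 on the plus strand. Capitals mark the core of the interferon-stimulated response element, searched as GAAANNGAAA and, for the other strand, TTTCNNTTTC.
Stat2 promoter: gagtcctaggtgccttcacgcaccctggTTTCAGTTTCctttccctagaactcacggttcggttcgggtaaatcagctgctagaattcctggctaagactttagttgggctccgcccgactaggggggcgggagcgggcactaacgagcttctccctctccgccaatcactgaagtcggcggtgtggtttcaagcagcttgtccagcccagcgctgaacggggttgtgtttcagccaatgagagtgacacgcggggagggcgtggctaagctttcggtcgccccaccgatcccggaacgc
Stat4 promoter, downstream start: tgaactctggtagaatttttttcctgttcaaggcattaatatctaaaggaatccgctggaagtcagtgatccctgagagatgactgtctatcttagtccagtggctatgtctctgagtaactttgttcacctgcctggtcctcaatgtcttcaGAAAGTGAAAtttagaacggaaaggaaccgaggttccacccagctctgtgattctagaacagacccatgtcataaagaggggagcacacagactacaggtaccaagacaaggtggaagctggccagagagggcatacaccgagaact

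The match in Stat2 reads TTTCAGTTTC and begins 222 bases before the start, and the match at the downstream start of Stat4 reads GAAAGTGAAA and begins 97 bases before it. RefSeq gave 9 windows for the 6 genes, and the other 7 windows, those of Stat3, Stat5a, Stat5b, Stat6 and the upstream start of Stat4, held no match. Of all 32851 windows 1131, or 3.44%, held the element, and of the 27025 genes with a window 1079, or 3.99%, held it in at least 1. Among 10 of the 14 listed interferon-stimulated genes that could be matched to windows, 6 held it (Isg15, Ifit1, Ifit3, Oas1a, Rsad2 and Bst2). A match is a description of letters, and no match says nothing of what binds elsewhere in the gene.

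Levels of the STAT genes within a library were ordered first. Stat6 was the most abundant, at a mean of 56.0 FPKM over the 10 libraries, and Stat5a the least, at 7.83 FPKM. Stat3 averaged 25.6 FPKM, Stat5b 21.6 FPKM and Stat4 11.2 FPKM. Stat2 averaged 28.9 FPKM but had a median of 17.5 FPKM, so it stood above Stat3 and Stat5b by the mean and below both by the median. Stat6 was higher than Stat2 in 9 of 10 libraries, by a mean of 1.26 on the log2 scale (two-sided exact sign-flip permutation test within libraries, p = 0.00586, 0.00732 adjusted over the 5 neighbouring pairs). Stat2 was higher than Stat3 in only 2 of 10 libraries, MWA 4 and MWA+2DG 5, but by a wide margin there. The test of their mean difference therefore gave no order (mean log2 difference -0.12, exact sign-flip test, p = 0.596). Stat3 was above Stat5b by 0.24, Stat5b above Stat4 by 0.95 and Stat4 above Stat5a by 0.51 on the log2 scale, in 10 of 10 libraries each (exact sign-flip test, p = 0.00195, the smallest possible, adjusted 0.00326).

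Replicates of a group did not all look alike. The first principal component of all tested genes held 36.4% of the variance, and it set most of replicates 3 to 5 of both groups apart from replicates 1 and 2, with MWA 4 and MWA+2DG 5 at its far end. The labels give no reason for this split, which was known from earlier results of these same data. P-values between the sets therefore describe the split and are no independent support for it. Between the sets, with the group as a second term in limma, 488 genes (3.66%) passed an adjusted p of 0.05 and 2913 genes (21.8%) an unadjusted P of 0.05. Group comparisons are therefore also given with labels exchanged only within the sets, and without the 2 libraries.

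Stat4 was the one of the 6 STAT genes past the study's rule for a difference between the groups. It transmits interleukin-12 signals in T and NK cells and drives interferon gamma production. In the MWA group Stat4 stood at 11.3, 9.35, 9.33, 10.7 and 9.12 FPKM in replicates 1 to 5. In the MWA+2DG group it stood at 14.5, 11.2, 11.1, 12.1 and 13.5 FPKM. The groups overlapped through a single library, MWA 1, which was above MWA+2DG 2 and MWA+2DG 3, and all 5 MWA+2DG libraries lay above the MWA median. Stat4 averaged 12.5 ± 1.48 FPKM under 2DG and 9.97 ± 0.995 FPKM without it (SD, n = 5). In limma this was a log2 fold change of 0.29 with a standard error of 0.0934 and a 95% interval of 0.09 to 0.50 (unadjusted P = 0.00935; exact permutation test of the mean, p = 0.0238, and p = 0.0333 with labels exchanged within the replicate sets).

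The study selects genes in limma by P below 0.05 and a log fold change beyond 0.25, which was read here as an unadjusted P and a log2 scale. By this rule Stat4 was called higher, as were 127 of the 13334 genes (0.952%), while 249 (1.87%) were called lower. With each library rescaled to the same total the split turned to 328 higher and 159 lower, and Stat4 was still called, at a log2 fold change of 0.37. After Benjamini-Hochberg adjustment over all genes the p of Stat4 in limma was 0.995, as it was for the other 5 STAT genes. None of the 13334 genes (0%) passed 0.05. An unadjusted P below 0.05 was found for 567 genes in limma and for 416 in an exact Wilcoxon test, which also left 0 after adjustment. In data simulated with genes independent of each other, 369 unchanged genes passed the study's rule. Calls in about the number seen here, 127 and 249, can thus arise without a group difference in such data. The simulated data held no replicate sets, so they do not show how many calls in these libraries arose that way. Without MWA+2DG 1, the library with the most Stat4, the log2 fold change was 0.24, under the threshold of 0.25, and then none of the 6 was called (exact permutation test of the mean without this library, p = 0.0476). Without MWA 4 and MWA+2DG 5 it was 0.29, and Stat4 was still called.

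**Figure D1:**
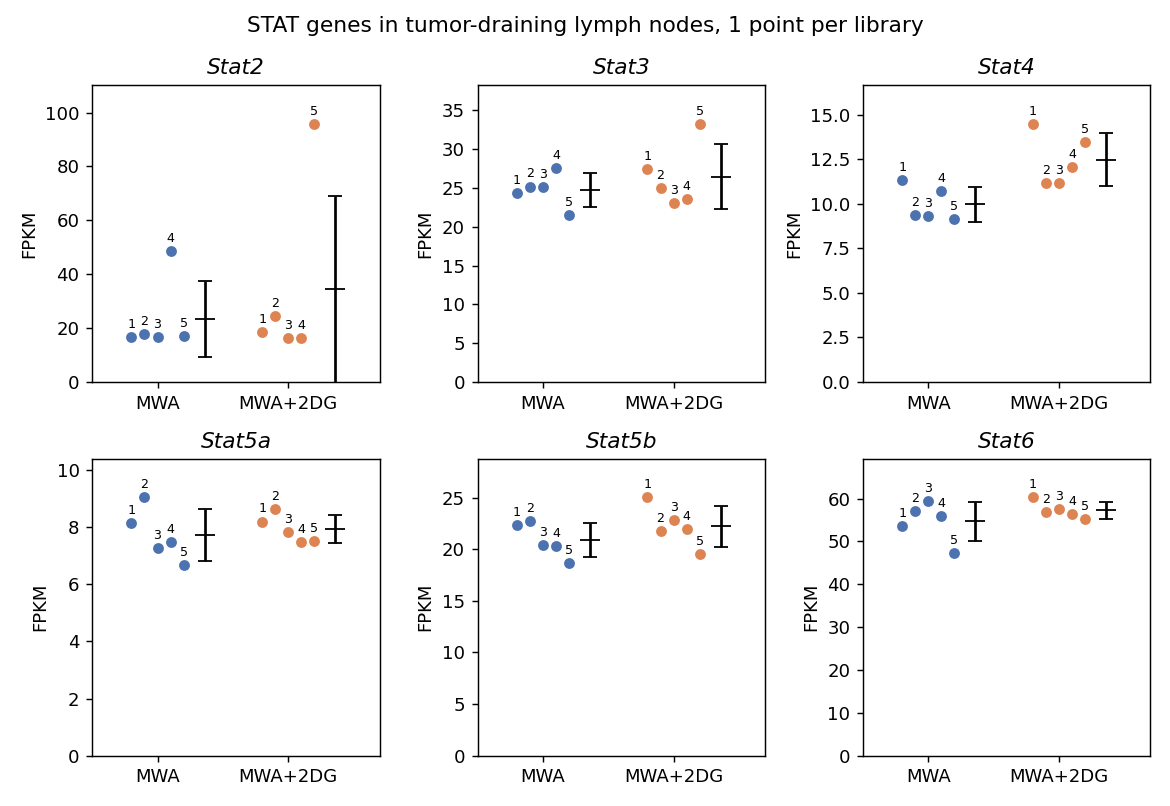
FPKM of the 6 STAT genes in each of the 5 MWA and 5 MWA+2DG libraries (points, numbered by replicate), with the mean and SD of the group as a black bar; all axes start at 0, which hides the lower end of the SD of Stat2 with 2DG. Stat4 lies at 11.1 FPKM or more in every MWA+2DG library and at 10.7 FPKM or less in 4 of 5 MWA libraries, and Stat2 stands far above the rest in MWA 4 and MWA+2DG 5.

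In whole nodes a change in RNA per cell and a change in the number of cells that hold it cannot be told apart, so Stat4 was set beside T cell genes. Log2 fold changes were above 0 for 15 of 15 listed T cell genes (median 0.18). The summed T cell genes ran from 465 to 765 FPKM in the MWA group and from 515 to 728 FPKM with 2DG. Taken relative to the mean log2 level of the 15 genes, Stat4 was higher with 2DG by 0.13 (two-sided exact permutation test, p = 0.444), and 1 of 5 MWA+2DG libraries lay above all MWA libraries. This relative difference was 0.0176 without MWA+2DG 5 and 0.21 without MWA 4. The other STAT genes differed by -0.13 to 0.12 on this relative scale (exact permutation test, p = 0.389 to 0.849). MWA+2DG 5 and MWA 4, with T cell sums of 515 and 465 FPKM, held 13.5 and 10.7 FPKM of Stat4.

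Genes listed for NK cells, which also express Stat4, had their highest sums in the same 2 libraries. The 7 listed NK cell genes summed to 136 FPKM in MWA+2DG 5 and 91.9 FPKM in MWA 4, against 24.4 to 71.5 FPKM in the other 8. Most of these 2 sums was Gzma, at 87.6 and 55.5 FPKM. All 5 tested NK cell genes had their 2 highest values there, but Klrb1c, under the limit for testing, was higher in MWA 5 (1.48 FPKM) than in MWA 4 (1.02 FPKM). The part of T cell and NK cell content in the Stat4 difference was not tested beyond these values.

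**Figure D2:**
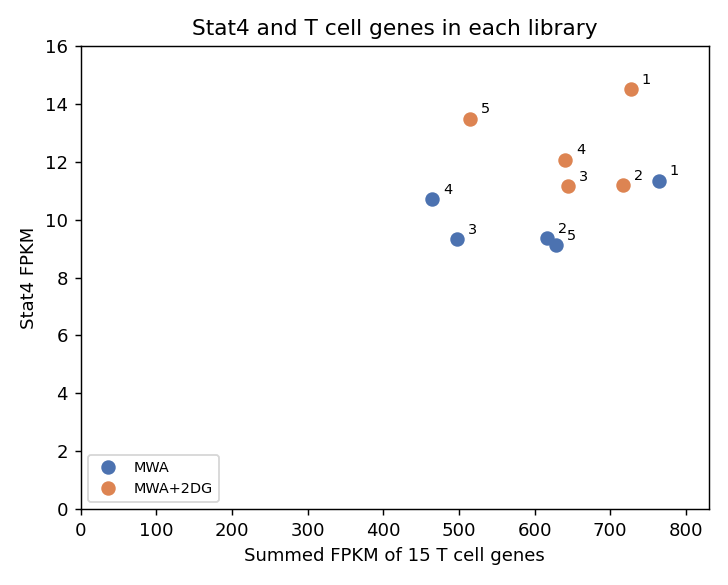
Stat4 FPKM against the summed FPKM of 15 T cell genes, 1 point per library, numbered by replicate and colored by group. MWA+2DG 5 combines 13.5 FPKM of Stat4 with 515 FPKM of T cell genes. Relative to the T cell genes, Stat4 differed by 0.13 on the log2 scale (exact permutation test, p = 0.444).

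A ratio of STAT genes within a library does not depend on how the library was scaled, and 3 such ratios were compared. Stat4 was already known to differ between the groups when the ratios were chosen. The ratio of Stat4 to Stat6 ran from 0.194 to 0.244 with a median of 0.214 in the MWA+2DG group and from 0.157 to 0.211 with a median of 0.191 in the MWA group. On the log2 scale it was higher with 2DG by 0.25 (exact permutation test, p = 0.0397, and p = 0.0667 with labels exchanged within the sets), and 3 of 5 MWA+2DG libraries lay above all MWA libraries. Adjusted over the 3 ratios, p was 0.119. Stat5a over Stat5b differed by -0.05 (p = 0.476, adjusted 0.714) and Stat3 over the sum of Stat5a and Stat5b by 0.01 (p = 0.944, adjusted 0.944, exact permutation tests).

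The genes around Stat4 were given by lists of its receptor and its targets. Il12rb1, a chain of the interleukin-12 receptor, stood at 2.72 ± 2.33 FPKM with 2DG and 1.87 ± 0.753 FPKM without (log2 fold change 0.25, exact permutation test, p = 0.54), and Il12rb2 and Il23r were under the limit for testing. The value of Il12rb1 rests on MWA+2DG 5, at 6.88 FPKM, with 3.19 FPKM in MWA 4 and 1.34 to 1.92 FPKM in the other 8 libraries. Of 7 listed Stat4 targets 5 were tested, 4 had log2 fold changes above 0 and none was called (median 0.19, beside 0.0074 for all genes). Furin, a protease induced by interleukin-12, was at 5.84 ± 0.487 FPKM with 2DG and 4.99 ± 0.503 FPKM without (log2 fold change 0.19, exact permutation test, p = 0.0238, and p = 0.05 within the sets), which missed the fold threshold. The interleukin-18 receptor chains Il18r1 and Il18rap had log2 fold changes of 0.26 and 0.20 (exact permutation test, p = 0.0952 and 0.452). Ifng, the main product of the pathway, was under the limit and stood at 4.02 FPKM in MWA+2DG 5 and 2.16 FPKM in MWA 4, against 0.188 to 0.579 FPKM in the other 8 libraries.

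Stat2 had the widest spread of the 6 STAT genes. It joins Irf9 in the complex ISGF3, which binds interferon-stimulated response elements. In the MWA group it stood at 16.8, 17.8, 16.6, 48.8 and 17.1 FPKM in replicates 1 to 5. In the MWA+2DG group it stood at 18.5, 24.6, 16.4, 16.2 and 95.9 FPKM. One library in each group was thus far above the others, MWA 4 at 2.86 times the mean of the other 4 MWA libraries and MWA+2DG 5 at 5.06 times that of the other 4 MWA+2DG libraries. The remaining 8 libraries held 18.0 ± 2.77 FPKM (SD, n = 8), and the highest of these was MWA+2DG 2.

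Over all libraries Stat2 averaged 34.3 ± 34.6 FPKM under 2DG and 23.4 ± 14.2 FPKM without it (SD, n = 5). The log2 fold change of 0.29 was about that of Stat4, but its standard error was 0.48 and its 95% interval ran from -0.77 to 1.35 (limma, P = 0.558; exact permutation test, p = 0.595). It was -0.17 without MWA+2DG 5 and 0.58 without MWA 4, and without both it was 0.12. The residual SD of Stat2 in limma was larger than that of 97.8% of tested genes. The mean absolute deviation from the group median on the log2 scale was 0.61 with 2DG and 0.32 without (exact permutation test of the difference, p = 0.484), and for the other 5 genes the same test gave p = 0.317 to 0.984.

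**Figure D3:**
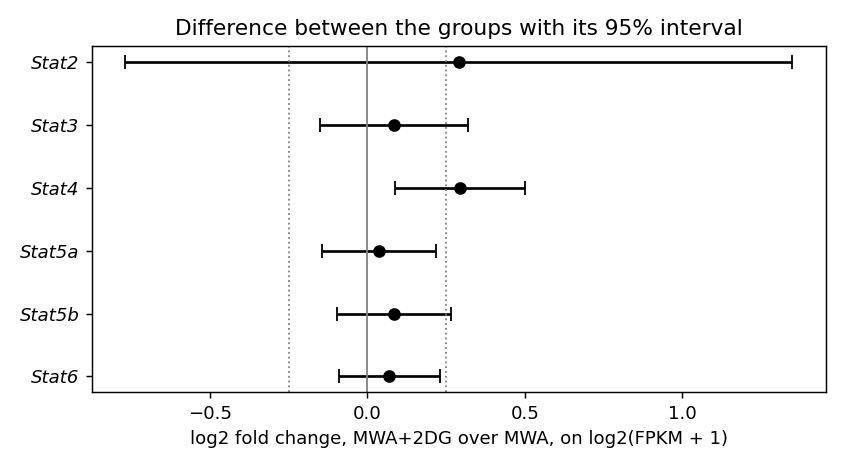
Log2 fold change of MWA+2DG over MWA on log2(FPKM + 1) for the 6 STAT genes in limma (points) with the 95% interval (bars); dotted lines mark the fold threshold of 0.25 in either direction. The interval of Stat4 runs from 0.09 to 0.50 and lies above 0, that of Stat2 runs from -0.77 to 1.35, and those of the other 4 genes include 0.

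Interferon-stimulated genes were high in the same libraries as Stat2. Of the 14 listed as Stat2 targets, 13, all but Oas1a, had their 2 highest values in MWA+2DG 5 and MWA 4, as had 616 (4.62%) of all tested genes. Irf7, a transcription factor that amplifies type I interferon, stood at 359 FPKM in MWA+2DG 5 and 134 FPKM in MWA 4, and at 15.5 to 74.4 FPKM in the other 8 libraries. Isg15, a ubiquitin-like protein, stood at 323 and 134 FPKM in the same 2 libraries and at 9.49 to 47.2 FPKM in the others. Against the mean of the other 8 libraries, the 13 genes were 5.34 to 45.7 times higher in MWA+2DG 5 (median 19.5) and 2.16 to 25.3 times higher in MWA 4 (median 10.8), while Stat2 itself was 5.32 and 2.71 times higher.

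The order of the lower libraries followed in part. MWA+2DG 2, next in Stat2, was also next in the summed targets, at 341 FPKM, close to MWA 5 at 325 FPKM, where Stat2 was at 17.1 FPKM. Between the groups the log2 fold changes of all 14 targets were above 0 (median 0.25), and none was called. The 3 of smallest P were Ifit2 (log2 fold change 0.49), Oas2 (0.48) and Ifit1 (0.38), which are antiviral genes (exact permutation test, p = 0.468, 0.611 and 0.651). These values share the 2 high libraries and so are not separate observations of a group difference.

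**Figure D4:**
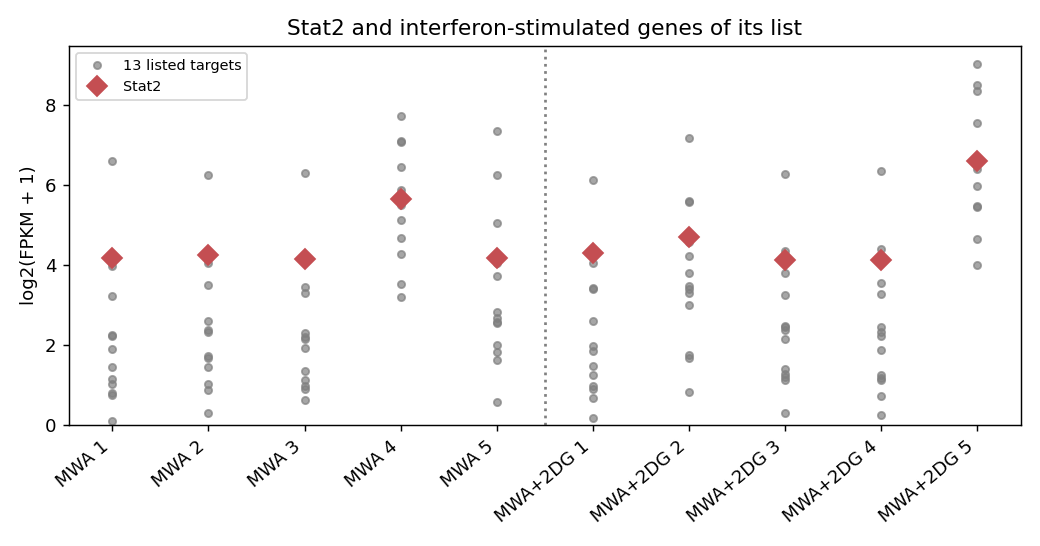
Log2(FPKM + 1) of Stat2 (red diamonds) and of 13 interferon-stimulated genes listed as its targets (grey points) in each library, MWA on the left and MWA+2DG on the right of the dotted line; Oas1a is left out. All 13 genes and Stat2 are highest in MWA+2DG 5 and second highest in MWA 4.

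Receptor and partner genes of Stat2 were examined next. Irf9 reached 43.4 FPKM in MWA+2DG 5 and 31.0 FPKM in MWA 4, with 17.8 to 29.2 FPKM elsewhere. The receptor chain Ifnar1 stood at 19.1 ± 1.18 FPKM with 2DG and 17.6 ± 0.920 FPKM without (log2 fold change 0.11, exact permutation test, p = 0.0476, and p = 0.0667 within the sets), and Ifnar2 at 19.8 ± 1.09 and 18.9 ± 1.08 FPKM (0.06, p = 0.23). Socs1, a feedback inhibitor of interferon signaling, also had its 2 highest values in the 2 libraries, at 31.2 FPKM in MWA+2DG 5 and 14.5 FPKM in MWA 4, against 6.64 to 10.1 FPKM in the others. Ifnb1, the one type I interferon gene of the lists, was listed at 0 in 8 libraries, at 0.0719 FPKM in MWA 4 and at 0.121 FPKM in MWA+2DG 5.

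Stat3, which serves interleukin-6, interleukin-10 and interleukin-21, was high in the same 2 libraries as Stat2, by less. It stood at 24.4, 25.2, 25.1, 27.6 and 21.5 FPKM in the MWA group. It stood at 27.5, 24.98, 23.01, 23.6 and 33.3 FPKM in the MWA+2DG group. The groups overlapped, and the 2 highest libraries were again MWA+2DG 5 and MWA 4, the latter just above MWA+2DG 1. The means were 26.5 ± 4.18 and 24.8 ± 2.18 FPKM (SD, n = 5), and the log2 fold change was 0.08 with a 95% interval of -0.15 to 0.32 (limma, P = 0.447; exact permutation test, p = 0.524). Without MWA+2DG 5 the difference in mean FPKM was -0.00027.

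Within the libraries Stat3 was compared with the Stat5 pair. The ratio of Stat3 to the sum of Stat5a and Stat5b was 1.23 in MWA+2DG 5, where the other 4 MWA+2DG libraries lay between 0.751 and 0.826, and it ran from 0.791 to 0.993 in the MWA group, with MWA 4 the highest. Over the 10 libraries Stat2 and Stat3 had a Pearson r of 0.86 on log2(FPKM + 1), which was 0.34 without MWA 4 and MWA+2DG 5. These correlations share the libraries and their scaling and are given as a description.

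Among the receptors served by Stat3, Il6ra, the interleukin-6 receptor, was at 9.06 ± 1.20 FPKM with 2DG and 7.57 ± 0.662 FPKM without (log2 fold change 0.23, exact permutation test, p = 0.0317), and 4 of 5 MWA+2DG libraries lay above all MWA libraries. Il27ra had a log2 fold change of 0.15 and Il21r one of -0.10 (exact permutation test, p = 0.214 and 0.365). None of the 8 receptor genes of this list was called with all libraries, and 1, Il6ra, was called without MWA 4 and MWA+2DG 5. Of 10 listed Stat3 targets 8 were tested, 7 had log2 fold changes above 0 and none was called (median 0.05). Junb (0.11), Pim1 (-0.13) and Mcl1 (0.06), which act in transcription and cell survival, had the smallest P in limma (exact permutation test, p = 0.119, 0.317 and 0.167). Socs3, the feedback inhibitor induced by Stat3, reached 47.3 FPKM in MWA+2DG 5 and 33.4 FPKM in MWA 4, its 2 highest values.

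Stat5a and Stat5b are close paralogs that lie next to each other, with Stat3, on chromosome 11, and reads could be split between them by the authors' mapping, so each value carries that uncertainty. Stat5a stood at 8.14, 9.04, 7.29, 7.49 and 6.68 FPKM in the MWA group. It stood at 8.20, 8.62, 7.82, 7.49 and 7.52 FPKM in the MWA+2DG group. The groups covered nearly the same range, with means of 7.93 ± 0.481 and 7.73 ± 0.902 FPKM (SD, n = 5). The log2 fold change was 0.04, with a 95% interval from -0.14 to 0.22 (limma, P = 0.661; exact permutation test, p = 0.683).

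Stat5b stood at 22.3, 22.8, 20.5, 20.3 and 18.6 FPKM in the MWA group. It stood at 25.03, 21.8, 22.8, 21.9 and 19.5 FPKM in the MWA+2DG group. The groups overlapped, with 2 of 5 MWA+2DG libraries above all MWA libraries, and the means were 22.2 ± 1.99 and 20.9 ± 1.68 FPKM (SD, n = 5). The log2 fold change was 0.08 with a 95% interval of -0.10 to 0.27 (limma, P = 0.333; exact permutation test, p = 0.294). Stat5b was the more abundant of the pair in all 10 libraries, and Stat5a was 0.328 to 0.397 of it. The pair varied together over the libraries (Pearson r 0.73 over 10 libraries, and 0.72 without MWA 4 and MWA+2DG 5).

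Stat5a was separated by replicate set, a split that was itself taken from these data. All 6 libraries of replicates 3 to 5 had less Stat5a than any of the 4 libraries of replicates 1 and 2, at 7.38 ± 0.384 (SD, n = 6) against 8.50 ± 0.419 FPKM (SD, n = 4), a log2 difference of -0.18 with a standard error of 0.0625 (limma, adjusted p = 0.140). No share of all genes without overlap between the sets is given here, so the separation of Stat5a cannot be set against that of all genes. The median log2 difference of all tested genes between the sets was -0.08. Stat5b differed by -0.15 (limma, adjusted p = 0.242) and Stat2, Stat3, Stat4 and Stat6 by 0.46, -0.00223, -0.07 and -0.05 (adjusted p of 0.594 to 0.992 in limma). So 1 of 6 STAT genes passed an unadjusted P of 0.05 between the sets, beside 21.8% of all genes, and 0 of 6 passed the adjusted p, beside 3.66%. Under median ratio scaling Stat5a differed by -0.09 and Stat5b by -0.05, none of the 6 then passed the unadjusted P, and the values of Stat3, Stat4 and Stat6 turned positive, at 0.10, 0.03 and 0.06.

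**Figure D5:**
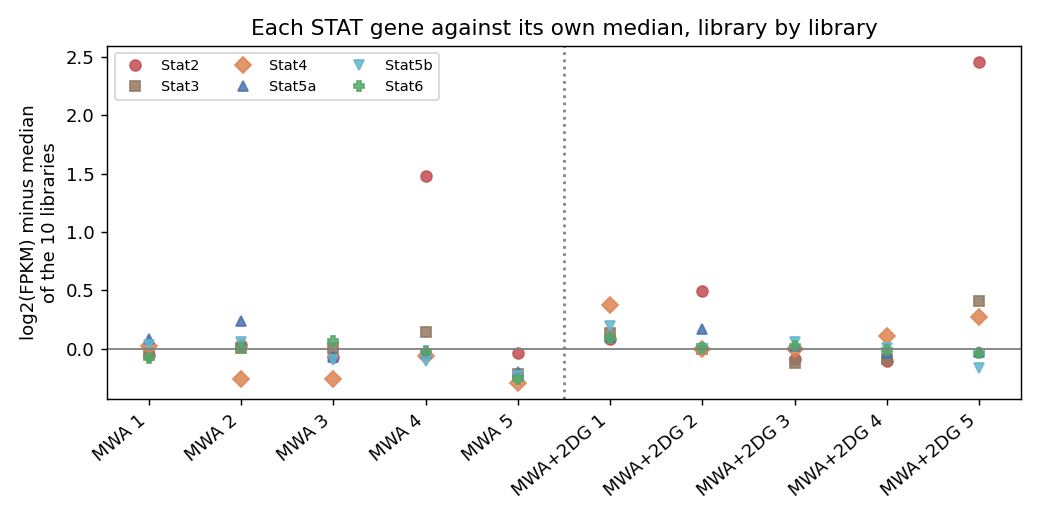
Log2 FPKM of each STAT gene minus its own median over the 10 libraries, library by library, MWA on the left and MWA+2DG on the right of the dotted line. Stat2 leaves the others in MWA 4 and MWA+2DG 5, Stat4 is above 0 in 4 of 5 MWA+2DG libraries, and all 6 genes are below 0 in MWA 5.

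The common gamma chain and beta common receptors feed the Stat5 pair. All 10 listed receptor genes were tested, 9 had log2 fold changes above 0 (median 0.14), and none was called. Il7r, the interleukin-7 receptor of naive and memory T cells, was at 31.0 ± 6.63 FPKM with 2DG and 25.3 ± 4.18 FPKM without (log2 fold change 0.28, exact permutation test, p = 0.151), Csf2ra had a log2 fold change of 0.20 (p = 0.302) and Il2rg, the shared gamma chain, one of 0.13 (p = 0.246). Of 8 Stat5 targets, all tested, 6 had log2 fold changes above 0 (median 0.15) and 1 was called higher. That gene was Osm, the cytokine oncostatin M, at 4.92, 4.34, 4.52, 3.80 and 4.90 FPKM with 2DG and 4.33, 3.06, 3.20, 3.37 and 3.12 FPKM without. Its groups overlapped through MWA 1, and its log2 fold change was 0.32 with a standard error of 0.094 (limma, adjusted p = 0.995; exact permutation test, p = 0.0159). Bcl2, a survival factor, and Ccnd2, a cyclin, had log2 fold changes of 0.21 and 0.24 (exact permutation test, p = 0.127 and 0.19).

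Stat6, which carries interleukin-4 and interleukin-13 signals in B cells, T cells and macrophages, was the most abundant member and had the smallest residual SD of the 6. It stood at 53.7, 57.0, 59.4, 56.0 and 47.3 FPKM in the MWA group. It stood at 60.3, 56.9, 57.5, 56.3 and 55.1 FPKM in the MWA+2DG group. The groups overlapped, with MWA 5 the lowest of all, and the means were 57.2 ± 1.91 and 54.7 ± 4.61 FPKM (SD, n = 5). The log2 fold change was 0.07 with a 95% interval of -0.09 to 0.23 (limma, P = 0.366; exact permutation test, p = 0.317). Its residual SD was larger than that of only 8.50% of tested genes, and the corresponding shares were 19.3% for Stat5a, 19.5% for Stat5b, 33.5% for Stat4 and 49.2% for Stat3.

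Stat6 targets had mostly negative values. Of 10 listed, 7 were tested, 1 had a positive log2 fold change, the median was -0.07 and 1 was called lower. The called gene was Retnla, a marker of macrophages exposed to interleukin-4, at 0.33, 0.731, 1.20, 1.10 and 3.36 FPKM with 2DG and 2.54, 2.45, 1.83, 2.47 and 3.59 FPKM without. Only MWA+2DG 5 reached the MWA values, and the log2 fold change was -0.71 with a standard error of 0.268 (limma, adjusted p = 0.995; exact permutation test, p = 0.0873). Gata3, the transcription factor of Th2 cells, had the one positive value, with 3.34 ± 0.420 FPKM with 2DG and 2.72 ± 0.313 FPKM without (log2 fold change 0.22, exact permutation test, p = 0.0397, and p = 0.0667 within the sets). Beside Retnla, the macrophage genes Lyz2 (log2 fold change -0.47) and Csf1r (-0.30) were called lower, 2 of 10 listed macrophage and monocyte genes, whose sum ran from 1159 to 1710 FPKM with 2DG and from 1646 to 2541 FPKM without. Most of this sum was Lyz2, at a mean of 1218 FPKM with 2DG and 1690 FPKM without. The median log2 fold change of the 10 genes was -0.19, and 1 of them, Cd68, was above 0. Of all tested genes 249 (1.87%) were called lower. The part of macrophage genes in the value of Retnla was not tested.

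Both libraries with high Stat2 were the lowest in several Stat6 targets. Il4ra, the interleukin-4 receptor, Fcer2a, the low-affinity IgE receptor of B cells, and the chemokines Ccl17 and Ccl22 had their 2 lowest values in MWA 4 and MWA+2DG 5, 4 of 7 tested targets, as had 1393 (10.4%) of all tested genes. Fcer2a stood at 94.0 FPKM in MWA 4 and 46.2 FPKM in MWA+2DG 5, against 96.4 to 162 FPKM in the other 8 libraries. Ccl22 stood at 23.8 and 18.1 FPKM, against 30.3 to 75.4 FPKM. Stat6 itself was not low there, at 56.0 and 55.1 FPKM. Of the receptor genes of this branch, Il4ra, Il13ra1 and Il13ra2, none was called and all 3 had a log2 fold change below 0, from -0.06 to -0.00111.

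None of the kinases and inhibitors that STAT proteins share passed the rule between the groups. The log2 fold changes of all 4 Janus kinases were above 0 (median 0.11), and none was called. All 4 had their lowest value of all libraries in MWA 5, with Jak1 at 63.0, Jak2 at 17.8, Jak3 at 35.6 and Tyk2 at 11.8 FPKM. Their shared direction therefore leans on a library that they have in common. Jak3, which pairs with the common gamma chain, was at 52.3 ± 3.62 FPKM with 2DG and 46.3 ± 6.48 FPKM without (log2 fold change 0.18, exact permutation test, p = 0.0952), Jak2 had a log2 fold change of 0.15 (p = 0.135) and Tyk2 one of 0.07 (p = 0.563). Of the 8 SOCS genes 7 had a positive value with a median of 0.08 and none was called, with Socs5 (0.16), Socs3 (0.21) and Socs6 (0.06) of smallest P in limma (exact permutation test, p = 0.0794, 0.452 and 0.365). Socs4, Socs5, Socs6 and Socs7 were also lowest in MWA 5. Of 9 PIAS proteins and phosphatases 5 had a positive value, the median was 0.04 and none was called. Ptpn6, the phosphatase SHP-1, was at 201 ± 12.6 FPKM with 2DG and 215 ± 8.96 FPKM without, while Pias3 and Pias4 had log2 fold changes of 0.14 and 0.07.

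Over all 14 lists, which share some genes, 105 genes were listed and 86 tested. Log2 fold changes were above 0 for 65 of the 86 (median 0.11) and for 7011 of all 13334 tested genes (median 0.0074). The 86 genes are not separate observations of a group difference. Most interferon-stimulated genes among them shared the high libraries MWA+2DG 5 and MWA 4, and the Janus kinases shared a low MWA 5. One gene, Osm, was called higher and 1, Retnla, lower, beside 0.952% and 1.87% of all tested genes. Among the cytokine genes 5 of 17 reached the limit for testing, and next to Osm the smallest P belonged to Il4 (log2 fold change -0.22) and Il12a (0.13), with an exact permutation p of 0.262 and 0.365. None of the 6 STAT genes had groups without overlap, which 107 genes (0.802%) had.

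The genes whose levels followed each member most closely over the 10 libraries were named by Pearson r on log2(FPKM + 1), with Spearman rho beside it. For Stat2 they were the interferon-inducible GTPases Irgm1 (r 0.996, rho 0.806) and Gbp4 (r 0.994, rho 0.697), and Nampt (r 0.994, rho 0.915), and without MWA 4 and MWA+2DG 5 their r was 0.897, 0.869 and 0.838. For Stat3 they were Gm17334 (r 0.975, rho 0.952), the transcription factor Etv6 (r 0.974, rho 0.879) and Morc3 (r 0.969, rho 0.879). For Stat4 they included Nabp1 (r 0.927, rho 0.891) and BC065397 (r 0.909, rho 0.988), and Osm was close behind (r 0.886, rho 0.842).

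For Stat5a the closest were Wdr11 (r 0.961, rho 0.915), BC002059 (r 0.957, rho 0.903) and Micu2 (r 0.947, rho 0.927), and for Stat5b Slc37a3 (r 0.969, rho 0.964), Znrf2 (r 0.968, rho 0.915) and Pofut1 (r 0.965, rho 0.976). For Stat6 they were Arid1a (r 0.972, rho 0.976), a chromatin remodeling subunit, Camsap1 (r 0.970, rho 0.903) and Ago2 (r 0.968, rho 0.733). None of the 6 was among the 3 closest genes of another. The closest genes were picked from 13334 as the highest, so these values are a description and carry no p.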

How the data were processed

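Poly(A) RNA of whole TDLNs was sequenced in 10 libraries, 5 MWA and 5 MWA+2DG, grouped by their titles. The authors mapped reads to mm9 with HISAT2 2.0.4 and deposited FPKM per gene from StringTie 1.3.4d; the submitters' processing notes also name cutadapt 1.9 and UMI-tools. The FPKM values hold no read counts, low values are no multiples of a unit, and the depth is unknown, so no counting error could be given. Equal nonzero values made up a share of at most 0.000148 of genes in any pair of libraries.

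Symbols were matched for 33541 of 33643 identifiers, and 57 shared symbols were summed. limma 3.58.1 in R 4.3.3 was fitted on log2(FPKM + 1) over the 13334 genes whose mean reached 1 FPKM, with no covariate. The study names limma and its thresholds, but no log base, adjustment, pseudocount or filter; log2 and an unadjusted P were chosen here. A fold change on this scale understates that of low genes. Single values were compared by two-sided exact permutation tests (Python 3.11.15), whose smallest p is 0.00794. The fit was tested on simulated data for this comparison: of 100 genes with a log2 change of 0.5 among the 13334, 92 passed the study's rule and 48 the adjusted p, of 100 with a change of 1 98 and 85 did, and 369 unchanged genes passed the rule. P-values measure the spread between mice.

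The 6 genes, 22 gene lists and tests were chosen with earlier results of these data known. Named were the 6 genes, the 3 genes of smallest P and every called gene of each pathway list, and the 3 genes most like each STAT gene; others named (such as Irf7, Socs1, Il4ra) were chosen after their values were seen. The results of some genes are not reported here. Whether the replicate numbers pair mice was checked by the correlation of deviations from the group means for each number, which was 0.331, 0.501, 0.110, 0.0334 and 0.151. Not every value exceeded 0.1, so the numbers were not taken as pairs. Alternatives were another pseudocount (0.1), no filter, a filter of 5 FPKM, rescaling, median ratio scaling, quantile normalization, limma-trend, the Wilcoxon test, replicate terms and leaving out each library. Leaving out both MWA 4 and MWA+2DG 5 was added after the data were seen.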

Additional observations from a re-analysis of the deposited data

Results flagged for a closer look

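Each group of 5 libraries was searched for a highest or lowest value standing apart from the rest, by the gap to its nearest neighbor over the range of the group, for the 6 STAT genes and 3 ratios (18 groups). Chance alone marks about 1 in 20 groups, and 3 were marked. Stat2 in MWA 4, at 48.8 FPKM, had a gap of 0.962 of the range of its group, and Stat2 in MWA+2DG 5, at 95.9 FPKM, one of 0.895, both above the limit of 0.71. The ratio of Stat3 to the sum of Stat5a and Stat5b in MWA+2DG 5, at 1.23, had a gap of 0.843. The 3 values come from 2 libraries, and those of Stat2 and of the ratio in MWA+2DG 5 are not independent of each other.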

How the results depend on the processing

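Of 367 values computed under alternatives, 330 kept their direction and their side of the threshold. This count is no measure of robustness. The filters, limma-trend, the Wilcoxon test and the replicate terms leave the log2 fold change of a gene as it is, and values far from a threshold can hardly cross it. Leaving out 1 library at a time, the log2 fold change ran from -0.17 to 0.58 for Stat2 (lowest without MWA+2DG 5), from 0.24 to 0.34 for Stat4 (lowest without MWA+2DG 1) from -0.0077 to 0.0892 for Stat5a (lowest without MWA 5), from 0.00109 to 0.13 for Stat3 (lowest without MWA+2DG 5), from 0.0415 to 0.13 for Stat5b (lowest without MWA+2DG 1) and from 0.0182 to 0.0988 for Stat6 (lowest without MWA 5), and the number of STAT genes called was 0 or 1. The difference in mean FPKM ran from -4.48 to 17.3 for Stat2, from -0.00027 to 2.57 for Stat3, from 2.00 to 2.85 for Stat4 and from -0.0629 to 0.529 for Stat5a. The log2 ratio of Stat4 to Stat6 ran from 0.20 to 0.30 and missed an exact p of 0.05 without any one of 7 libraries, within the replicate sets (0.25, p = 0.0667) and without both MWA 4 and MWA+2DG 5 (0.23, exact permutation p = 0.114). The log2 ratio of Stat3 to the Stat5 pair ran from -0.11 to 0.0649, with -0.017 without MWA 1 and -0.0209 without MWA 2, and was -0.0638 without both. Relative to T cell genes Stat2 ran from -0.42 to 0.48, with -0.0426 without MWA 1, and was -0.0644 without both, Stat3 ran from -0.25 to 0.0179, and Stat4 from 0.0176 (without MWA+2DG 5) to 0.21 (without MWA 4).

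With the replicate number as a block, the log2 fold change of Stat4 stayed at 0.29 and 164 genes were called higher and 285 lower in place of 127 and 249. The paired difference in mean FPKM of Stat4, 2.51, had an exact sign-flip p of 0.0625, the smallest 5 pairs allow, and no other call changed. In replicates 1 and 2 alone, where the smallest exact p is 0.125, Stat6 exceeded Stat2 by 1.57, Stat3 Stat5b by 0.15, Stat5b Stat4 by 1.00 and Stat4 Stat5a by 0.43 (log2). In replicates 3 to 5 alone Stat6 exceeded Stat2 by 1.05 (exact p = 0.0938) and Stat2 exceeded Stat3 by 0.0649. Between the sets, median ratio scaling turned Stat3, Stat4 and Stat6 to 0.0991, 0.0275 and 0.0576, and Stat5a was at -0.0879 and Stat5b at -0.0506. Rescaling each library to 1000000 moved the median of all genes to 0.07 and the calls to 328 higher and 159 lower. Of the pathway genes 5 were then called higher (Osm, Furin, Gata3, Il6ra and Il7r), 2 under median ratio scaling (Osm and Il18r1) and 3 without both libraries (Osm, Il6ra and Ccnd2), in place of 1. Without both, 203 genes were called higher and 155 lower, and without MWA+2DG 5 alone 222 and 176. The causes were not tested. The depth of the libraries is unknown.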

Other observations

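Oas1a, the one listed interferon-stimulated gene that was not highest in MWA+2DG 5 and MWA 4, was divided by replicate number. It stood at 3.83 to 11.2 FPKM in replicates 1 and 2 of both groups and at 0 to 0.460 FPKM in replicates 3 to 5 of both groups. Its relative Oas2 had no such division and stood at 1.39 to 10.1 FPKM in the 8 libraries other than MWA 4 (44.2 FPKM) and MWA+2DG 5 (102 FPKM).

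Among the other cell types of the node, the log2 fold changes of all 10 listed B cell genes were below 0 (median -0.09) and none was called. Of 7 plasma cell genes Xbp1 (-0.39) and Mzb1 (-0.50) were called lower, and of 3 tested neutrophil genes S100a8 (-1.43) and S100a9 (-1.61), with 46.9 FPKM of S100a9 in MWA 1 and 7.52 to 12.02 FPKM in the other MWA libraries. The share called lower among all tested genes was 1.87%. The plasma cell calls were lost without MWA 4 and MWA+2DG 5, and those of the neutrophil genes remained in number. None of the 7 dendritic cell genes, the 9 stromal and endothelial genes or the 5 tested NK cell genes was called with all libraries.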
